A study of Homo sapiens with 20 samples.

Results

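The respiratory chain and ATP synthase form the machinery of oxidative phosphorylation. The protein-coding genes of this machinery were taken by symbol from the deposited gene table: the mitochondrially encoded MT-ND, MT-CO, MT-CYB and MT-ATP genes, and the nuclear genes with NDUFA, NDUFB, NDUFC, NDUFS or NDUFV followed by a number, SDHA to SDHD, and symbols beginning with UQCR, COX4 to COX8 or ATP5. This gave 100 genes of the 35168 in the table, 13 of them encoded in mitochondrial DNA and 87 in the nucleus. The pattern matched 215 symbols, and the 115 that were not protein-coding, pseudogenes among them, were left out. RNA had been sequenced from 20 libraries of 5 established human lines: the acute myeloid leukemia (AML) lines NOMO-1, Kasumi-1 and THP-1, and the endothelial lines iHUVEC and TIME. Each line gave 1 library with IFNg and TNFa together, 1 with TNFa, 1 with IFNg and 1 untreated; exposure lasted 24 h, and each cytokine was used at 10 ng/ml. IFNg is interferon gamma and TNFa is tumor necrosis factor alpha, a pair of inflammatory cytokines. A treatment therefore had 3 AML and 2 endothelial libraries, the line was the replicate, and no condition was repeated within a line, so p-values measure only the spread between these libraries, which nothing in the labels ties to separate cultures of a line. Every line is a single established culture model and not primary blood or vessel tissue.

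As background, complexes I to IV pass electrons from NADH and succinate to oxygen, all but complex II pump protons across the inner mitochondrial membrane, and complex V, the ATP synthase, uses the gradient to make ATP. Complex I (NADH dehydrogenase), complex III (the cytochrome bc1 complex), complex IV (cytochrome c oxidase) and complex V draw subunits from both genomes, while complex II (succinate dehydrogenase) is wholly nuclear. The mitochondrial subunits are made from long polycistronic RNAs transcribed inside the organelle from many copies of its genome, and the nuclear ones from ordinary genes whose promoters often hold sites for NRF1, ETS-family factors (GABP) and YY1. By complex, the nuclear and mitochondrial members numbered 36 and 7 for complex I, 4 and 0 for II, 9 and 1 for III, 18 and 3 for IV, and 20 and 2 for V.

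The values are TPM, read shares corrected for transcript length that add up to a fixed total, so the sequencing depth is unknown and a transcript class that takes more of a library lowers every other value. Of the nuclear members, 76 reached 1 TPM in all 20 libraries, and 81 passed the filter for testing (1 TPM in at least 2 libraries). COX4I2, COX6A2 and COX7B2 were listed at 0 everywhere, COX8C and ATP5MGL stayed below 1 TPM, and UQCRHL reached 1 TPM in 1 library. The 7510.0 to 9549 genes at 1 TPM or more in NOMO-1 libraries were fewer than in the other libraries, which had 11334 to 12353. Hematopoietic markers (8 genes) summed to 590 to 6039 TPM in AML lines and 1.32 to 3.16 TPM in endothelial lines, and endothelial markers (8 genes) to 1.30 to 24.9 TPM in AML lines and 764 to 2115 TPM in endothelial lines; CDH5, VWF, TIE1, TEK, KDR and EMCN stayed below 1 TPM in every AML library. Fibroblast markers stayed at or under 27.8 TPM in all libraries, with COL3A1, DCN and LUM below 1 TPM throughout. Epithelial markers (5 genes) summed to 0.250 to 107 TPM in AML lines and 38.8 to 369 TPM in endothelial lines, with CDH1 below 1 TPM throughout, and lymphoid markers (5 genes) to 5.25 to 62.8 TPM and at most 0.238 TPM, with CD3E, CD3D and MS4A1 below 1 TPM throughout. In bulk RNA, fewer cells with a transcript and less of it per cell cannot be told apart.

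The 13 mitochondrial mRNAs took most of the RNA signal in NOMO-1 and a smaller part in the other lines. In NOMO-1 they held 82.1 with IFNg+TNFa, 80.4 with TNFa, 73.2 with IFNg and 76.0 untreated, in percent of all TPM. In Kasumi-1 the share was 13.4 with IFNg+TNFa, 17.4 with TNFa, 12.8 with IFNg and 15.6 untreated, and in THP-1 18.3 with IFNg+TNFa, 19.8 with TNFa, 20.03 with IFNg and 24.8 untreated. In iHUVEC it was 11.9 with IFNg+TNFa, 14.2 with TNFa, 17.3 with IFNg and 16.4 untreated, and in TIME 14.97 with IFNg+TNFa, 17.5 with TNFa, 17.7 with IFNg and 18.4 untreated. The 4 NOMO-1 libraries averaged 77.9 ± 4.08% (SD over treatments), far above all 16 others, whose highest value was 24.8% in untreated THP-1. Kasumi-1, iHUVEC and TIME overlapped one another, and THP-1 overlapped TIME alone. With both cytokines the share was highest in NOMO-1 among its 4 libraries, and lowest in THP-1, iHUVEC and TIME among theirs.

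**Figure D1:**
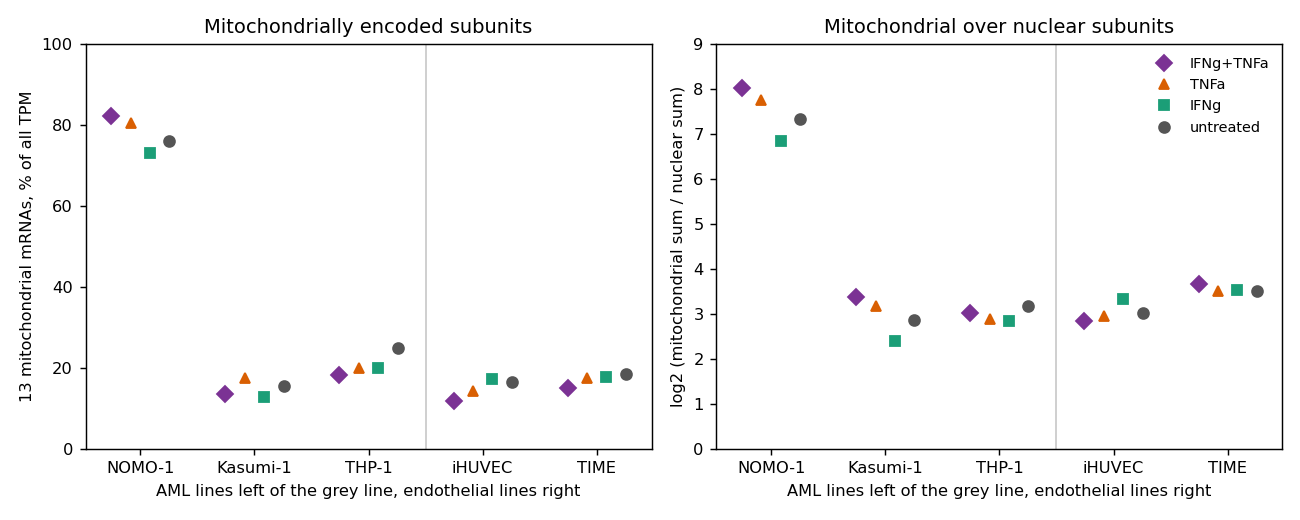
Left, the 13 mitochondrially encoded mRNAs in percent of all TPM in each library; right, log2 of their summed TPM over the summed TPM of the 87 nuclear members. Each point is 1 library, grouped by line and coloured by treatment; NOMO-1 lies between 73.2% and 82.1% on the left, while no other library passes 24.8%.

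Within the mitochondrial sum, the same 2 mRNAs led in every line. MT-ATP8, a small complex V subunit, held the most, 31.3 to 35.8% as line means, followed by MT-ND4L of complex I at 13.6 to 17.6%. The catalytic core of complex IV was spread over MT-CO2 at 7.36 to 9.79%, MT-CO1 at 5.48 to 9.86% and MT-CO3 at 5.12 to 9.58%. MT-ND3 held 5.53 to 8.62% and MT-ATP6, the proton channel subunit of complex V, 6.45 to 7.33%. The remaining complex I subunits held less: MT-ND4 3.41 to 4.43%, MT-ND2 2.05 to 4.04%, MT-ND6 2.27 to 4.15%, MT-ND1 1.60 to 3.64% and MT-ND5 1.12 to 1.85%. MT-CYB, the single mitochondrial subunit of complex III, held 1.51 to 2.24%. The lines differed in single members: MT-CO1 was at 9.86 ± 1.25% in NOMO-1 and 6.15 ± 1.71% in Kasumi-1, and MT-CO3 at 5.47 ± 0.623% in NOMO-1 and 9.58 ± 1.21% in Kasumi-1 (SD, n = 4 libraries each). MT-ND6 lies on the strand opposite MT-ND5, with line means of their ratio from 1.96 to 2.40, and the use of strand in assigning reads was not stated by any source used here.

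The 2 highest members overlap their downstream neighbours, with which each shares 1 messenger RNA. MT-ATP8 and MT-ATP6 share 46 bases at chrM:8527-8572, and MT-ND4L and MT-ND4 share 7 bases at chrM:10760-10766 (plus strand, GENCODE v29, GRCh38). The shared stretches are shown because reads in them belong to both genes. Capitals mark the first codon of the downstream frame and the last bases of the upstream one.
MT-ATP8 and MT-ATP6: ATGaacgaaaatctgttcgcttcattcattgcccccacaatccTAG
MT-ND4L and MT-ND4: ATGcTAA
The annotated lengths are 207 bases for MT-ATP8 and 681 for MT-ATP6, and 297 for MT-ND4L and 1378 for MT-ND4. Per length, MT-ATP8 was 4.34 to 5.27 times as high as MT-ATP6 and MT-ND4L 3.63 to 4.25 times as high as MT-ND4 (line means of the TPM ratio). How the short length and the shared bases enter these ratios was not tested, and the mitochondrial sum is therefore also given without both genes.

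The ratio of the mitochondrial to the nuclear sum does not depend on the rest of the library. NOMO-1 was picked for its mitochondrial share, and the numerator is that same sum. Its high ratio was therefore largely fixed in advance, and the ratio is given as a description with no test. On the log2 scale it was 8.03 with IFNg+TNFa, 7.76 with TNFa, 6.84 with IFNg and 7.34 untreated in NOMO-1. In Kasumi-1 it was 3.37 with IFNg+TNFa, 3.18 with TNFa, 2.40 with IFNg and 2.86 untreated, and in THP-1 3.01 with IFNg+TNFa, 2.88 with TNFa, 2.85 with IFNg and 3.17 untreated. In iHUVEC it was 2.85 with IFNg+TNFa, 2.95 with TNFa, 3.34 with IFNg and 3.01 untreated, and in TIME 3.65 with IFNg+TNFa, 3.501 with TNFa, 3.53 with IFNg and 3.51 untreated. The lowest NOMO-1 library was at 6.84, against a highest of 3.65 elsewhere. In order of line means the ratio was 7.49 ± 0.52 in NOMO-1, 3.55 ± 0.07 in TIME, 3.04 ± 0.21 in iHUVEC, 2.98 ± 0.15 in THP-1 and 2.95 ± 0.43 in Kasumi-1 (SD over 4 libraries), and the last 3 did not differ beyond their spread. Without MT-ATP8 and MT-ND4L the means were 6.62 in NOMO-1 and 1.99 to 2.54 in the others.

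The ratio was also highest in NOMO-1 in each complex that mixes both genomes, a description of the same share with no test. The mean log2 ratio in NOMO-1 was 7.57 for complex I, 5.57 for complex III, 7.75 for complex IV and 7.57 for complex V. In Kasumi-1 it was 3.16 for complex I, 0.67 for complex III, 3.01 for complex IV and 3.05 for complex V, and in THP-1 3.47 for complex I, 0.03 for complex III, 2.61 for complex IV and 3.20 for complex V. In TIME it was 3.47 for complex I, 1.91 for complex III, 3.44 for complex IV and 3.97 for complex V, and in iHUVEC 3.04 for complex I, 1.23 for complex III, 2.93 for complex IV and 3.43 for complex V. Complex III, with MT-CYB as its only mitochondrial member, had the lowest ratio of the 4 complexes in every line, and in THP-1 its nuclear and mitochondrial sums were about level.

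NOMO-1 was compared with the mean of Kasumi-1 and THP-1 in a fit over all 20 libraries with a term for each line. Its error comes from the spread of treatments within lines, so the test compares these 3 lines and not kinds of leukemia. In TPM, all 13 mitochondrial members were higher in NOMO-1. The line was picked for its mitochondrial share, so that count is a description with no test. Of 81 tested nuclear members, 75 were lower at an adjusted p under 0.05, in values that the same share lowers. These counts stand beside 77.8% of all genes that passed in this comparison (6.31% higher and 71.5% lower). The median log2 difference was 2.17 for mitochondrial members, -2.45 for nuclear members and -1.33 for all genes. When every gene was rescaled to the summed TPM of nuclear genes, the medians became 4.05, -0.70 and -0.31, and 13 nuclear members were higher and 46 lower, beside 24.1% and 42.4% of all genes. With scaling to the median ratio over genes the nuclear members split into 22 higher and 34 lower, beside 31% and 34.1% of all genes. The split of the nuclear members thus shifted with the scale. The 13 mitochondrial members were higher under each of the 3 scales, which the choice of NOMO-1 for its mitochondrial share fixed in advance.

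After rescaling, the mitochondrial members were 3.66 (MT-CO3) to 4.78 (MT-CO1) log2 units higher in NOMO-1. MT-CO1, the catalytic subunit of complex IV, stood at 90115, 84559, 69600.3 and 61927 TPM in NOMO-1 with IFNg+TNFa, TNFa, IFNg and untreated, at 11099.6, 8875, 7163 and 7596 TPM in Kasumi-1 in the same order, and at 12133, 11286, 11306 and 13791 TPM in THP-1. Its rescaled difference was 4.78 ± 0.17. MT-ND5 and MT-ND6 followed at 4.64 ± 0.15 and 4.56 ± 0.17, and MT-CYB was at 4.37 ± 0.17. The NOMO-1 libraries did not overlap those of Kasumi-1 or THP-1 for MT-CO1. NOMO-1 was set against the other lines because of its mitochondrial share, so these differences describe that share and are given with no test.

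Among nuclear members the rescaled counts were spread over the complexes: 8 higher and 18 lower of 36 in complex I, 1 and 3 of 4 in complex II, 0 and 4 of 8 in complex III, 1 and 9 of 14 in complex IV, and 3 and 12 of 19 in complex V. 23 nuclear members were lower in NOMO-1 under all 6 scales tried, which also restricted the sums to protein-coding transcripts. The TPM scales among them are lowered by the mitochondrial share, and the other 4 scales alone also gave 23. How many of all genes were lower under every scale was not counted, so the 23 members are given as a description. They included, as rescaled log2 differences, the complex I accessory subunits NDUFA8 at -2.02 ± 0.12 (adjusted p = 3.32e-08), NDUFB6 at -2.10 ± 0.36 (adjusted p = 0.000193) and NDUFB4 at -1.51 ± 0.13 (adjusted p = 6.55e-07). In the other complexes they included the complex III hinge protein UQCRH at -1.66 ± 0.25 (adjusted p = 5.67e-05), COX6A1 of complex IV at -1.53 ± 0.18 (adjusted p = 7.77e-06) and the small membrane subunit ATP5MK of complex V at -1.74 ± 0.18 (adjusted p = 2.97e-06). ATP5MK stood at 68.4, 60.3, 120.1 and 51.2 TPM in NOMO-1 with IFNg+TNFa, TNFa, IFNg and untreated, at 799, 859, 1120.0 and 803 TPM in Kasumi-1 and at 783, 891, 862 and 932 TPM in THP-1. NDUFA8 stood at 3.63, 3.98, 6.13 and 5.61 TPM, 58.3, 76.1, 94.6 and 89.5 TPM and 55.4, 78.5, 68.7 and 71.8 TPM in the same lines and order. For both genes every NOMO-1 library lay below every library of the other AML lines. The readthrough gene ATP5MF-PTCD1 of complex V, also among the 23, was listed at 0 in all 4 NOMO-1 libraries and at 1.36 to 4.81 TPM in Kasumi-1 and THP-1. It passed the filter on low values only through lines other than NOMO-1, so it had to be lower in NOMO-1. Its levels are a description with no test. It shares exons with ATP5MF, so its reads may be split with that gene.

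7 nuclear members, ATP5ME, COX6B2, NDUFA6, NDUFB7, NDUFS6, NDUFV1 and SDHA, were higher in NOMO-1 under the 4 scales other than TPM over all or over protein-coding transcripts. How many of all genes were higher under these 4 scales was not counted. Of the 7 members, COX6B2 was near the floor, at 0.221 to 1.32 TPM in NOMO-1 and 0.577 to 1.53 TPM in Kasumi-1 and THP-1. NDUFA6 overlapped between NOMO-1 and Kasumi-1. Over protein-coding transcripts its rescaled values were 55.8 to 99.0 in NOMO-1, 43.9 to 84.7 in Kasumi-1 and 2.39 to 7.21 in THP-1. Several other members changed with the transcripts counted. In NOMO-1, 84.2, 80.6, 81.0 and 73.5% of the nuclear members' TPM lay in transcripts that GENCODE v29 types as protein-coding (IFNg+TNFa, TNFa, IFNg and untreated), against 88.8 to 90.7% in the other libraries. Retained-intron transcripts took 7.03, 9.41, 11.3 and 13.6% of all nuclear TPM in NOMO-1 in the same order, against 4.76 to 6.89% elsewhere. NDUFV1, which carries the NADH-binding flavin of complex I, was higher in NOMO-1 either way, by 2.05 ± 0.10 over all transcripts and 2.17 ± 0.12 (adjusted p = 2.08e-08) over protein-coding ones. SDHA, the flavoprotein of complex II, was higher by 1.74 ± 0.14 over all transcripts and 0.72 ± 0.13 (adjusted p = 0.000243) over protein-coding ones. NDUFA10, a complex I accessory subunit, reversed: its rescaled difference was 1.27 ± 0.12 over all transcripts and -1.26 ± 0.14 (adjusted p = 4.39e-06) over protein-coding ones, with 6.52% of its NOMO-1 TPM and 45.2 to 71.9% of that in other lines in protein-coding transcripts. ATP5F1D, the delta subunit of complex V, likewise gave 1.04 ± 0.16 over all transcripts and -0.66 ± 0.14 (adjusted p = 0.000983) over protein-coding ones. NDUFS3, a core subunit of complex I, gave 1.38 ± 0.14 over all transcripts and -0.13 ± 0.13 (adjusted p = 0.410) over protein-coding ones. Its processed transcript ENST00000525212 stood at 13.8, 28.7, 50.9 and 81.6 TPM in NOMO-1 and at no more than 11.8 TPM in any other library. NDUFA9, an accessory subunit of complex I, moved the other way, with 0.37 ± 0.17 over all transcripts and 1.81 ± 0.19 (adjusted p = 2.83e-06) over protein-coding ones. In TPM, where the mitochondrial share weighs on every value, the same differences were 0.17 for NDUFV1, -0.12 for SDHA, -0.59 for NDUFA10, -0.83 for ATP5F1D, -0.50 for NDUFS3 and -1.44 for NDUFA9, so all but NDUFV1 turned sign between TPM and the rescaled values over all transcripts.

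**Figure D2:**
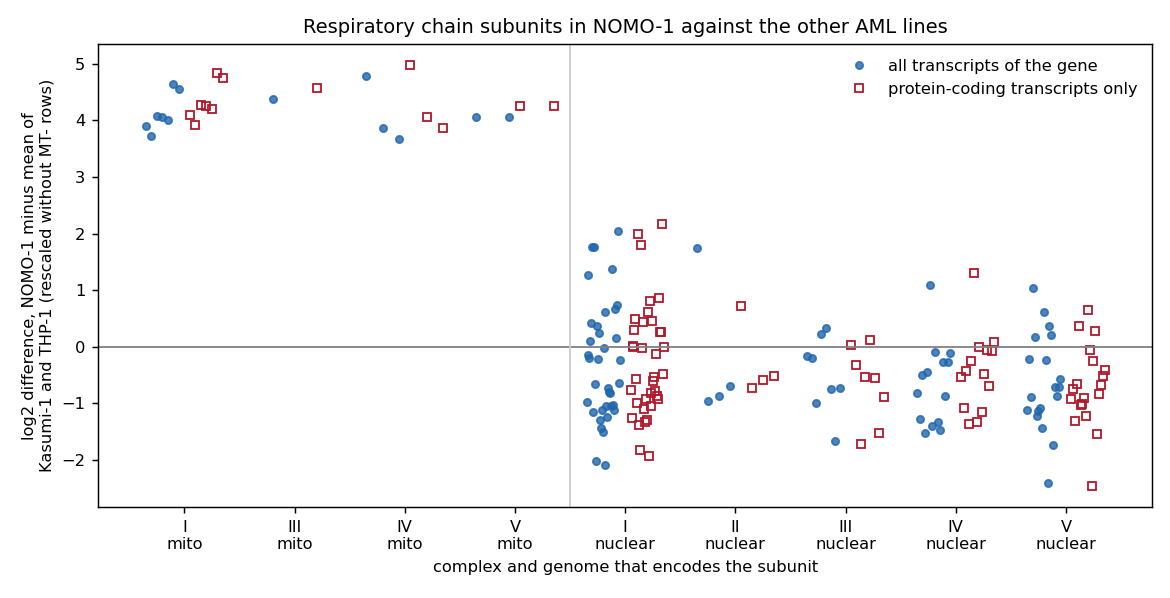
Log2 difference of NOMO-1 from the mean of Kasumi-1 and THP-1, rescaled to nuclear TPM, for every tested member by complex and genome. Circles count all transcripts of a gene and open squares protein-coding transcripts alone; the 13 mitochondrial members run from 3.66 to 4.78, and the nuclear members lie on both sides of 0.

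Among nuclear members the highest and lowest mean levels over the 20 libraries, which TPM allows to be compared between genes, were NDUFA13 at 367 TPM and NDUFA6 at 12.2 TPM in complex I, SDHA at 85.4 TPM and SDHD at 75.7 TPM in complex II, UQCRH at 602 TPM and UQCRFS1, the Rieske iron-sulfur protein, at 28.4 TPM in complex III, COX8A at 632 TPM and COX6B2 at 0.876 TPM in complex IV, and ATP5MF at 807 TPM and ATP5MF-PTCD1 at 2.82 TPM in complex V. The order differed between lines: SDHA was the lowest member of complex II in Kasumi-1, with a line mean of 54.7 TPM against 105 TPM of SDHB, and in THP-1, at 54.2 and 120.3 TPM, and NDUFA6 averaged 43.8 TPM in Kasumi-1. Several complex IV subunits exist as a widely expressed and a tissue-restricted isoform, and the wide form dominated. COX4I1 ranged over 78.5 to 831 TPM while COX4I2, the hypoxia-linked lung form, was listed at 0. COX6A1 ranged over 32.5 to 693 TPM while COX6A2, the heart and muscle form, was listed at 0, and COX8A over 149 to 1451 TPM while COX8C reached 0.815 TPM. COX6B1 ranged over 92.9 to 769 TPM and the testis form COX6B2 over 0.221 to 1.53 TPM. The 3 genes for the membrane ring of complex V, ATP5MC1, ATP5MC2 and ATP5MC3, encode the same mature c-subunit and ranged over 19.5 to 363, 41.3 to 656 and 29.9 to 675 TPM.

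The nuclear members with the widest range of line means were NDUFA6 and COX7A1. COX7A1 (chr19:36150922-36152869, minus strand, GENCODE v29), the heart and muscle form of a small complex IV subunit, stood at 20.5, 16.4, 28.6 and 20.7 TPM in TIME with IFNg+TNFa, TNFa, IFNg and untreated, and at 2.08, 1.48, 0.822 and 2.70 TPM in iHUVEC. It was at most 0.175 TPM in any AML library, and the 2 endothelial lines themselves did not overlap. Its relatives COX7A2 and COX7A2L ranged over 20.6 to 442 and 4.41 to 78.7 TPM. NDUFA6 (chr22:42085525-42090955, minus strand), an accessory subunit of complex I, stood at 30.3 to 61.1 TPM in Kasumi-1 and 9.08 to 19.0 TPM in NOMO-1, but at 1.58 to 4.42 TPM in THP-1, 0.398 to 2.16 TPM in iHUVEC and 0 to 1.45 TPM in TIME. Its transcript ENST00000498737 was listed at 0 in all 12 libraries of the last 3 lines and at 29.7 to 58.7 TPM in Kasumi-1. A listed 0 can be a failed estimate, and how reads of this gene were assigned was not tested.

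Untreated AML lines were then compared with untreated endothelial lines (3 and 2 libraries). 1 of 94 tested members passed, beside 8.49% of all genes. That member was COX7A1, with 0, 0 and 0.142 TPM in NOMO-1, Kasumi-1 and THP-1, against 2.70 and 20.7 TPM in iHUVEC and TIME. It passed the filter on low values only through the endothelial libraries, where it is high, so it had to differ and its levels are a description with no test. After rescaling without the mitochondrial rows, 0 members passed beside 8.19% of all genes (limma); 4 had an unadjusted p under 0.05. The 13 mitochondrial members all had higher means in the AML lines, with a median log2 difference of 0.89, which was 0.11 without NOMO-1. The nuclear median was -0.61 in TPM, 0.01 after rescaling and 0.35 with the median ratio, beside -0.88, -0.42 and -0.10 for all genes. The spread among the 3 AML lines was large, and the SE of COX4I1, for instance, was 1.10 around a difference of -0.63.

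With IFNg and TNFa together, nuclear respiratory chain genes took a smaller part of nuclear TPM in each of the 5 lines. The nuclear members held 1.76 with IFNg+TNFa, 1.89 with TNFa, 2.38 with IFNg and 1.95 untreated, in percent of nuclear TPM in NOMO-1. They held 1.498 with IFNg+TNFa, 2.32 with TNFa, 2.80 with IFNg and 2.53 untreated in Kasumi-1, and 2.78 with IFNg+TNFa, 3.36 with TNFa, 3.48 with IFNg and 3.66 untreated in THP-1. In iHUVEC the share was 1.87 with IFNg+TNFa, 2.14 with TNFa, 2.08 with IFNg and 2.44 untreated, and in TIME 1.40 with IFNg+TNFa, 1.87 with TNFa, 1.87 with IFNg and 1.97 untreated. The library with both cytokines was the lowest of its line in all 5 lines. In TPM, 54, 72, 60, 73 and 74 of 81 tested nuclear members were below their untreated value in NOMO-1, Kasumi-1, THP-1, iHUVEC and TIME, beside 68.2, 46.5, 57.1, 63.4 and 62.2% of all genes. After rescaling the count in NOMO-1 was 36, beside 59.5% of all genes. In NOMO-1 the share turned with the denominator: with the top 100 genes left out, the share with both cytokines minus that untreated was 0.66 percentage points in NOMO-1, -2.28 in Kasumi-1, -1.38 in THP-1, -0.61 in iHUVEC and -0.72 in TIME. Cytosolic ribosomal protein genes (85 genes) were lowest in the same libraries: they held 6.91% with both cytokines and 15.1% untreated in NOMO-1, 13.7% and 35.9% in Kasumi-1, 23.0% and 29.5% in THP-1, 11.9% and 17.0% in iHUVEC, and 8.89% and 17.2% in TIME. With the ribosomal protein genes left out of the denominator, the share of the nuclear members with both cytokines minus that untreated was -0.41 percentage points in NOMO-1, -2.21 in Kasumi-1, -1.59 in THP-1, -0.82 in iHUVEC and -0.85 in TIME, lower in all 5 lines.

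**Figure D3:**
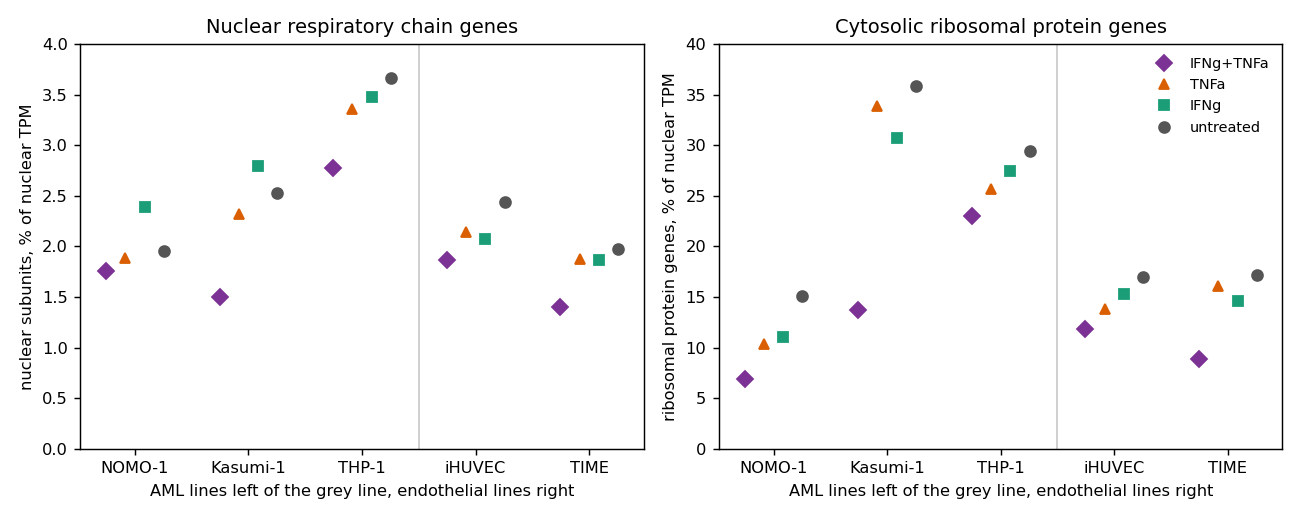
Left, summed TPM of the nuclear respiratory chain genes in percent of nuclear TPM; right, the same for cytosolic ribosomal protein genes. Each point is 1 library, grouped by line and coloured by treatment; within each line the library with both cytokines has the lowest value on both sides, down to 1.40% on the left in TIME and 6.91% on the right in NOMO-1.

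In the AML lines, 24 of 94 tested members were lower with both cytokines and 0 higher (limma, adjusted p under 0.05), beside 26% of all genes, 7.33% higher and 18.6% lower. They were 22 of 81 nuclear and 2 of 13 mitochondrial members. The count is to be read beside those shares, and no test here sets the members apart from other genes. By complex, 10 of 36 nuclear members fell in complex I, 0 of 4 in complex II, 5 of 8 in complex III, 0 of 14 in complex IV and 7 of 19 in complex V, with median log2 changes of -0.48, 0.13, -0.72, -0.32 and -0.56, beside -0.19 for all genes. After rescaling without the mitochondrial rows, 26 nuclear members were lower and 2 higher (21.2% and 10.3% of all genes). With the median ratio, 7 were lower and 4 higher (14.6% and 15.2%), and the nuclear median was -0.07. Without NOMO-1 the TPM counts were 15 lower and 1 higher, and without Kasumi-1 7 lower and 0 higher.

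4 of the 6 members that were lower under all 6 scales belong to complex I, NDUFB1, NDUFB9, NDUFS3 and NDUFV1, and the others, ATP5MC2 and ATP5ME, to complex V. How many of all genes were lower under all 6 scales was not counted. NDUFS3 (chr11:47565336-47584562, plus strand, GENCODE v29), a core subunit of the arm that faces the matrix, stood at 49.5 TPM in NOMO-1, 47.1 in Kasumi-1 and 132 in THP-1 with both cytokines, against 167 TPM in untreated NOMO-1, 117 in untreated Kasumi-1 and 211 in untreated THP-1. It was lower with both cytokines in each line, although the groups overlapped across lines, and its log2 change was -1.23 ± 0.22 (adjusted p = 0.00255), or -0.98 without NOMO-1 (adjusted p = 0.0103). NDUFV1 (chr11:67605653-67612554, plus strand) stood at 78.4 TPM in NOMO-1, 64.0 in Kasumi-1 and 139 in THP-1 with both cytokines, against 223 TPM in untreated NOMO-1, 125 in untreated Kasumi-1 and 192 in untreated THP-1. It too was lower in each line, and fell by 0.97 ± 0.19 (adjusted p = 0.00412). In NOMO-1 its transcript ENST00000415352 stood at 82.7 TPM untreated and 0 with both cytokines, and at no more than 2.23 TPM in any library of the other lines. The transcript ENST00000322776 of NDUFV1 stood at 55.2 TPM in untreated NOMO-1 and 46.5 TPM with both cytokines. How reads were shared between these transcripts was not tested. NDUFS5, an accessory subunit, stood at 33.5 TPM in NOMO-1, 106 in Kasumi-1 and 436 in THP-1 with both cytokines, against 62.2 TPM in untreated NOMO-1, 455 in untreated Kasumi-1 and 666 in untreated THP-1, a change of -1.19 ± 0.28 (adjusted p = 0.00882); the fall was steepest in Kasumi-1. The accessory subunits NDUFB10 and NDUFB9 fell by 1.03 ± 0.26 (adjusted p = 0.0132) and 1.01 ± 0.21 (adjusted p = 0.00584) on the log2 scale. NDUFA9 was at 0.78 ± 0.27 (adjusted p = 0.0530) in TPM and 0.89 ± 0.23 (adjusted p = 0.0112) after rescaling. It stood at 13.9 TPM in NOMO-1, 91.2 in Kasumi-1 and 29.3 in THP-1 with both cytokines, against 13.2 TPM in untreated NOMO-1, 41.5 in untreated Kasumi-1 and 12.7 in untreated THP-1, and over protein-coding transcripts its rescaled change was 0.56 ± 0.25 (adjusted p = 0.0997).

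No subunit of complex II passed in TPM: SDHA, the flavoprotein, was at -0.38 ± 0.25 (adjusted p = 0.271), SDHB, the iron-sulfur subunit, at 0.37 ± 0.29 (adjusted p = 0.368), and the membrane anchors SDHC and SDHD at 0.57 ± 0.24 (adjusted p = 0.0941) and -0.10 ± 0.22 (adjusted p = 0.773). SDHC stood at 14.6 TPM in NOMO-1, 94.1 in Kasumi-1 and 143 in THP-1 with both cytokines, against 8.96 TPM in untreated NOMO-1, 86.9 in untreated Kasumi-1 and 73.0 in untreated THP-1, higher with both cytokines in each line. Its change was 0.69 ± 0.21 (adjusted p = 0.0246) after rescaling and 0.94 ± 0.24 (adjusted p = 0.0120) with the median ratio, which made it 1 of 2 and 1 of 4 members called higher. Without NOMO-1 its rescaled change was 0.48 (adjusted p = 0.125). In complex III, UQCRH fell by 1.08 ± 0.32 (adjusted p = 0.0269) and UQCRQ, another small subunit, by 0.99 ± 0.28 (adjusted p = 0.0212). UQCRH stood at 61.5 TPM in NOMO-1, 201 in Kasumi-1 and 1171 in THP-1 with both cytokines, against 81.8 TPM in untreated NOMO-1, 913 in untreated Kasumi-1 and 1834 in untreated THP-1. Without Kasumi-1 the changes were -0.53 (adjusted p = 0.214) for UQCRH, -0.54 (adjusted p = 0.184) for UQCRQ, -0.74 (adjusted p = 0.0626) for NDUFS5 and -0.62 (adjusted p = 0.118) for NDUFB10. In complex IV, COX4I1 was at -0.40 ± 0.14 (adjusted p = 0.0556), COX6A1 at 0.05 ± 0.23 (adjusted p = 0.923), COX7A2 at 0.30 ± 0.24 (adjusted p = 0.369) and COX8A at -0.33 ± 0.17 (adjusted p = 0.175).

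In complex V the c-ring genes differed. ATP5MC1 (chr17:48892765-48895871, plus strand) stood at 19.5 TPM in NOMO-1, 32.8 in Kasumi-1 and 250.3 in THP-1 with both cytokines, against 34.7 TPM in untreated NOMO-1, 363 in untreated Kasumi-1 and 323 in untreated THP-1. Its log2 change of -1.53 ± 0.46 (adjusted p = 0.0271) was the widest of any member and rested mostly on Kasumi-1, without which it was -0.58 (adjusted p = 0.106). ATP5MC2 fell by 0.91 ± 0.19 (adjusted p = 0.00494), and ATP5MC3 was at -0.37 ± 0.26 (adjusted p = 0.313). ATP5F1D, the delta subunit of the catalytic head's stalk, fell by 1.00 ± 0.27 (adjusted p = 0.0184), and ATP5IF1, the inhibitor that blocks ATP hydrolysis by the enzyme, by 0.92 ± 0.26 (adjusted p = 0.0218). Of the mitochondrial members, MT-ND3 and MT-ND2 fell by 0.50 ± 0.15 (adjusted p = 0.0293) and 0.47 ± 0.15 (adjusted p = 0.0402) in TPM, and neither passed after rescaling, at -0.40 ± 0.20 (adjusted p = 0.155) and -0.36 ± 0.20 (adjusted p = 0.198). Of the 24 called members, 6 were called in each fit with 1 line left out, ATP5MC2, NDUFA5, NDUFB1, NDUFB9, NDUFS3 and NDUFV1, and the other 18 lost the call in at least 1 such fit.

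In the endothelial lines, 4 of 94 members fell with both cytokines and 0 rose, beside 14.5% of all genes (4.18% higher and 10.3% lower). All 4 were nuclear. NDUFA12, a complex I accessory subunit, stood at 175 TPM in iHUVEC and 117 in TIME with both cytokines, against 299 TPM in untreated iHUVEC and 233 in untreated TIME, a log2 change of -0.88 ± 0.27 (adjusted p = 0.0430). NDUFA8 fell by 0.86 ± 0.23 (adjusted p = 0.0238), NDUFA5 by 0.76 ± 0.23 (adjusted p = 0.0399) and UQCRB, which binds ubiquinone in complex III, by 0.86 ± 0.25 (adjusted p = 0.0343). NDUFS3 stood at 78.2 TPM in iHUVEC and 53.7 in TIME with both cytokines, against 116 TPM in untreated iHUVEC and 85.9 in untreated TIME, a change of -0.62 ± 0.27 (adjusted p = 0.143). After rescaling, 11 nuclear members were lower and 0 higher (11.2% and 4.12% of all genes). With the median ratio 0 were lower and 1 higher (4.56% and 6.79%), which was NDUFA9 at 1.205 ± 0.24 (adjusted p = 0.00714). The nuclear median was -0.49 in TPM and -0.15 with the median ratio. Each call rests on 2 lines and on a spread shared with the AML lines: leaving out either endothelial line left 0 members called in the other, and 8 (TIME alone) and 2 (iHUVEC alone) members at an unadjusted p under 0.05. 9 members were lower in both cell types after rescaling (9.57% of 94, beside 5.82% of all genes), which is 32.1% of the 28 called in the AML lines and 81.8% of the 11 called in the endothelial lines. They were ATP5MC2, ATP5MJ, NDUFA5, NDUFB2, NDUFB9, NDUFS8, NDUFV1, UQCRB and UQCRC1. The overlap changed with the scale. In TPM 2 members, NDUFA5 and UQCRB, were lower in both cell types (2.13% of 94, beside 4.57% of all genes). With the median ratio 0 were lower and 1, NDUFA9, was higher (1.06% of 94), beside 2.07% and 3.85% of all genes. Over protein-coding transcripts 0 were shared in TPM, beside 5.47% of all genes lower and 2.21% higher. After rescaling of these transcripts 8 were lower (8.51% of 94, beside 5.99% of all genes). With their median ratio 1 was higher (1.06% of 94, beside 3.98% of all genes).

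The response to both cytokines was also tested for a difference between the cell types. No member passed (0 of 94, beside 2.28% of all genes; limma), and 1 had an unadjusted p under 0.05. That member was NDUFA6, whose response in AML lines minus that in endothelial lines was -1.25 ± 0.44 on the log2 scale (adjusted p = 0.179). The larger number of members called in AML lines is therefore not shown to be a different response.

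**Figure D4:**
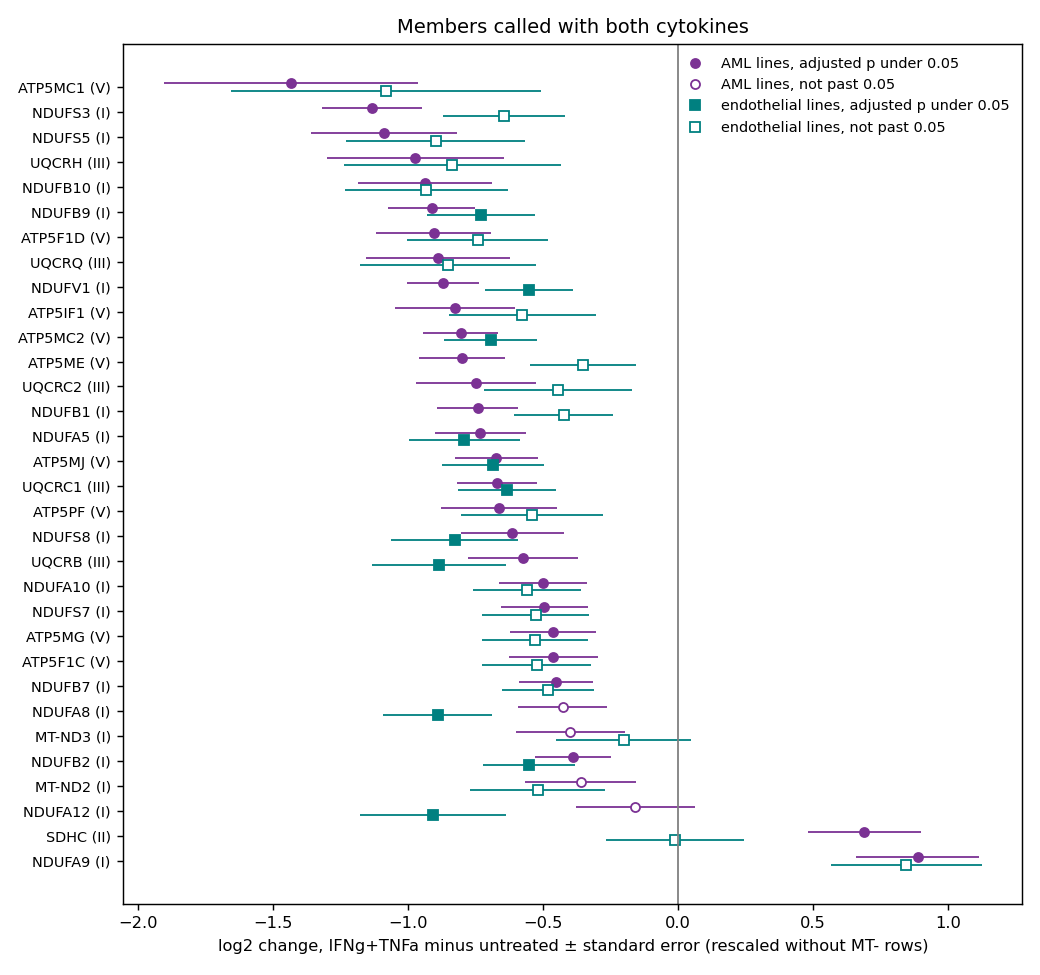
Log2 change with IFNg+TNFa against untreated, rescaled to nuclear TPM, in AML lines and endothelial lines. Only called members are shown: those called in AML lines in TPM or after rescaling, or in endothelial lines after rescaling. They are ordered by their change in AML lines, with the complex in brackets. Bars are standard errors and filled points have an adjusted p under 0.05. The filled points above 0 in AML lines are SDHC and NDUFA9. Over all tested nuclear members, shown or not, the median is -0.32 in AML lines and -0.51 in endothelial lines.

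After either cytokine alone few genes passed, and no member did in any of the 4 comparisons by limma. IFNg in AML lines called 0.645% of all genes, TNFa in AML lines 0.0864%, IFNg in endothelial lines 0.425% and TNFa in endothelial lines 1.02%. Members with an unadjusted p under 0.05 numbered 10, 1, 0 and 1 in the same order. With IFNg in AML lines the nuclear median was 0.26 (all genes -0.02), but the lines differed: 7 of 81 nuclear members were below their untreated TPM in NOMO-1, 16 in Kasumi-1 and 39 in THP-1, beside 42.7, 55.1 and 45.7% of all genes, and after rescaling 48 were below it in THP-1. In the fit all 13 mitochondrial members had a change below 0, with a median of -0.26. The lowest adjusted p was that of COX7A2, at 0.69 ± 0.24 (adjusted p = 0.343). With TNFa it was that of NDUFS3 in AML lines, -0.53 ± 0.22 (adjusted p = 0.670), and of NDUFA6 in endothelial lines, 1.05 ± 0.34 (adjusted p = 0.304). These comparisons share their untreated libraries. The difference between cell types called 0 members for IFNg and for TNFa, beside 0.00665% and 0.259% of all genes, with 7 and 1 members at an unadjusted p under 0.05.

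NDUFA4 sits in complex IV, and its relative C15orf48 takes its place there in inflamed cells; the C15orf48 transcript is also the host of miR-147b, which is known to target NDUFA4. C15orf48, which lies outside the symbol pattern, rose with both cytokines in both cell types. With both cytokines it stood at 111 TPM in NOMO-1, 121 in Kasumi-1, 0.657 in THP-1, 43.3 in iHUVEC and 57.7 in TIME, against 1.5 TPM in untreated NOMO-1, 0 in untreated Kasumi-1, 0.188 in untreated THP-1, 0.111 in untreated iHUVEC and 0.153 in untreated TIME. It was thus high in 4 of 5 lines and near 0 in THP-1, where all 4 libraries were below 1 TPM. The log2 change was 4.30 ± 1.02 (adjusted p = 0.00977) in AML lines and 5.49 ± 1.25 (adjusted p = 0.0112) in endothelial lines. With TNFa alone it stood at 32.2, 0.490, 0.243, 7.57 and 2.93 TPM in NOMO-1, Kasumi-1, THP-1, iHUVEC and TIME, and with IFNg alone at 14.4, 0.156, 0.386, 0.249 and 0 TPM, and neither cytokine alone passed in either cell type. NDUFA4 (chr7:10931951-10940256, minus strand) stood at 13.3 TPM in NOMO-1, 22.3 in Kasumi-1, 62.1 in THP-1, 59.7 in iHUVEC and 44.8 in TIME in these libraries, against 5.72 TPM in untreated NOMO-1, 33.2 in untreated Kasumi-1, 55.4 in untreated THP-1, 69.9 in untreated iHUVEC and 51.2 in untreated TIME. Its change was 0.23 ± 0.25 (adjusted p = 0.537) in AML lines and -0.21 ± 0.31 (adjusted p = 0.731) in endothelial lines. It was lower with both cytokines in Kasumi-1, iHUVEC and TIME and higher in NOMO-1 and THP-1. The other relative, NDUFA4L2, was at no more than 2.34 TPM in any library.

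The sequences behind the link between both genes are shown with the seed of the miRNA (bases 2 to 8) and its match in NDUFA4 in capitals. The mature miRNA (chr15:45433098-45433118, plus strand, RefSeq, GRCh38.p14) is given as RNA, and the site, which ends at the base opposite its first, as DNA.
hsa-miR-147b-3p: gUGUGCGGaaaugcuucugcu
NDUFA4 site: tccagaagccacatCCGCACAa
The site starts at base 501 of the 2130-base transcript ENST00000339600 (GENCODE v29). The mature miRNA itself was not measured in these libraries, and a seed match is a description of letters and not of repression.

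**Figure D5:**
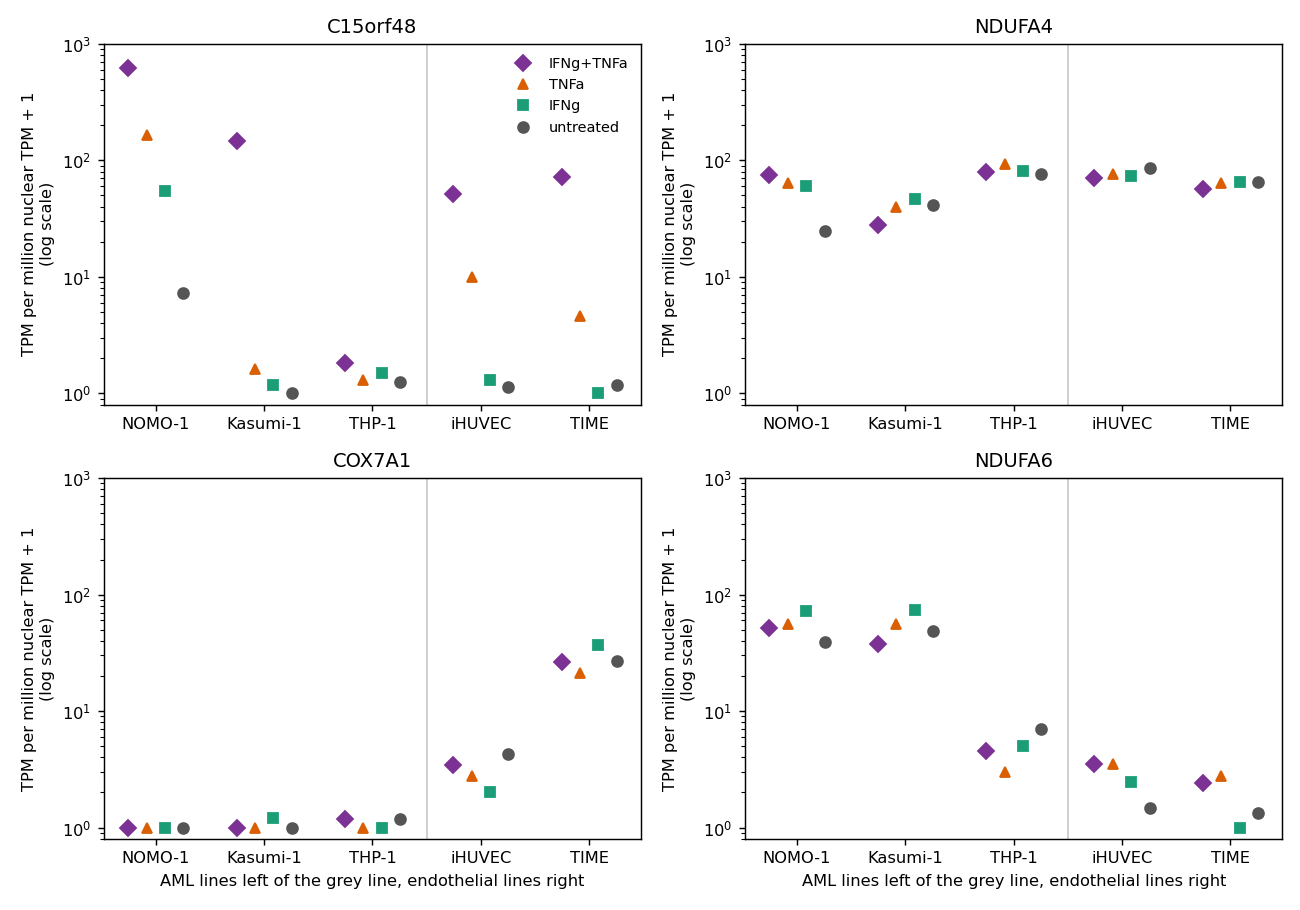
C15orf48, NDUFA4, COX7A1 and NDUFA6 in every library, as TPM rescaled to nuclear TPM, plus 1, on a logarithmic axis. Each point is 1 library, grouped by line and coloured by treatment; C15orf48 is highest with both cytokines in every line, but stays under 1 TPM in THP-1, COX7A1 separates TIME and iHUVEC from the AML lines, and NDUFA6 separates Kasumi-1 and NOMO-1 from the other lines.

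Genes that assemble, transcribe or regulate the chain were read from lists beside it, with the same 18.6% of all genes lower and 7.33% higher and the same median of -0.19 in AML lines. The median-ratio counts in brackets, here and in the next paragraph, stand beside 14.6% of all genes lower and 15.2% higher on that scale. Of complex I assembly factors, 5 of 15 fell and 0 rose (median -0.70; 4 and 1 with the median ratio), led by NDUFAF8 at -1.58 ± 0.31 (adjusted p = 0.00362) and FOXRED1 at -1.33 ± 0.26 (adjusted p = 0.00366). NDUFAF8 stood at 31.3 TPM in NOMO-1, 35.3 in Kasumi-1 and 263 in THP-1 with both cytokines, against 124 TPM in untreated NOMO-1, 168 in untreated Kasumi-1 and 393 in untreated THP-1, lower in each line. Of assembly factors for complexes II to V, 12 of 31 fell and 2 rose (median -0.57; 8 and 3 with the median ratio). Among them UQCC3, a complex III factor, was at -2.04 ± 0.29 (adjusted p = 0.000738) and SCO2, which delivers copper to complex IV, at 1.94 ± 0.57 (adjusted p = 0.0249). SCO2 stood at 154 TPM in NOMO-1, 55.6 in Kasumi-1 and 179 in THP-1 with both cytokines, against 22.4 TPM in untreated NOMO-1, 31.7 in untreated Kasumi-1 and 35.6 in untreated THP-1. Of mitochondrial transcription, replication and RNA stability genes, 8 of 25 fell and 0 rose (median -0.49; 5 and 0 with the median ratio), including the topoisomerase TOP1MT at -2.28 ± 0.46 (adjusted p = 0.00465) and LRPPRC, which stabilises mitochondrial mRNAs, at -1.21 ± 0.29 (adjusted p = 0.0101). Of mitochondrial ribosomal proteins, 27 of 77 fell and 0 rose (median -0.53; 12 and 10 with the median ratio), among them MRPS26 at -2.11 ± 0.43 (adjusted p = 0.00468).

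Of regulators of nuclear respiratory genes in AML lines, 3 of 11 fell and 0 rose (median -0.33; 1 and 2 with the median ratio). They were MYC at -2.28 ± 0.74 (adjusted p = 0.0379), PPRC1 at -0.95 ± 0.32 (adjusted p = 0.0466) and NRF1 at -0.78 ± 0.20 (adjusted p = 0.0139). MYC stood at 2.63 TPM in NOMO-1, 16.9 in Kasumi-1 and 94.3 in THP-1 with both cytokines, against 15.1 TPM in untreated NOMO-1, 414 in untreated Kasumi-1 and 105 in untreated THP-1, with most of the fall in Kasumi-1 and NOMO-1. Of tricarboxylic acid cycle genes, 2 of 16 fell and 1 rose (median -0.25; 0 and 3 with the median ratio); the risen one was ACOD1, which diverts aconitate to itaconate, which passed the filter only through libraries with both cytokines and is given by its levels. It stood at 8.33, 8.74 and 12.4 TPM in NOMO-1, Kasumi-1 and THP-1 with both cytokines and was listed at 0 in the same lines untreated. Of glycolysis genes, 5 of 20 fell and 2 rose (median -0.32; 1 and 3 with the median ratio), with HK1 at 1.32 ± 0.29 (adjusted p = 0.00684) and LDHB at -1.51 ± 0.40 (adjusted p = 0.0169). Of uncoupling, antioxidant and mitophagy genes, 0 of 11 fell and 1 rose (median -0.10; 0 and 3 with the median ratio). SOD2, the manganese superoxide dismutase of the matrix, was the risen one at 5.49 ± 0.48 (adjusted p = 6.77e-05) and stood at 311 TPM in NOMO-1, 1538 in Kasumi-1 and 906 in THP-1 with both cytokines, against 3.62 TPM in untreated NOMO-1, 45.1 in untreated Kasumi-1 and 21.7 in untreated THP-1.

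In endothelial lines the lists were read beside 10.3% of all genes lower, 4.18% higher and a median of -0.22. The median-ratio counts in brackets stand beside 4.56% of all genes lower and 6.79% higher on that scale. Of complex I assembly factors, 2 of 15 fell and 0 rose (median -0.63; 1 and 1 with the median ratio), and of those for complexes II to V, 9 of 31 fell and 0 rose (median -0.59; 2 and 1 with the median ratio). NDUFAF8 and UQCC3 were again among them, at -1.98 ± 0.37 (adjusted p = 0.00423) and -1.51 ± 0.35 (adjusted p = 0.0123). Of mitochondrial transcription, replication and RNA stability genes, 3 of 25 fell and 0 rose (median -0.49; 0 and 1 with the median ratio); TFAM, which packages mitochondrial DNA and starts its transcription, was at -1.22 ± 0.37 (adjusted p = 0.0461) and stood at 32.9 TPM in iHUVEC and 12.7 in TIME with both cytokines, against 63.8 TPM in untreated iHUVEC and 37.8 in untreated TIME. Of regulators, 1 of 11 fell and 0 rose (median -0.52; 0 and 1 with the median ratio), the fallen one being GABPA, an ETS-family factor, at -0.72 ± 0.22 (adjusted p = 0.0432). Of tricarboxylic acid cycle genes, 0 of 16 fell and 1 rose (median -0.40; 0 and 1 with the median ratio), and ACOD1, with the same limit, stood at 3.05 TPM in iHUVEC and 22.9 in TIME with both cytokines, against 0.0282 TPM in untreated iHUVEC and 0 in untreated TIME. Of glycolysis genes, 1 of 20 fell and 0 rose (median -0.14; 0 and 2 with the median ratio), LDHB at -1.61 ± 0.49 (adjusted p = 0.0462). Of mitochondrial ribosomal proteins, 6 of 77 fell and 0 rose (median -0.54; 0 and 1 with the median ratio). SOD2 rose by 6.12 ± 0.58 (adjusted p = 5.20e-05), with 2361 and 3127 TPM in iHUVEC and TIME with both cytokines, against 38.8 and 37.1 TPM untreated, and UCP2, an inner-membrane carrier, fell by 2.12 ± 0.42 (adjusted p = 0.00551). In this list, 1 of 11 fell and 1 rose (median -0.19; 1 and 1 with the median ratio). Of the 6 subunits and carriers outside the symbol pattern, C15orf48 rose in both cell types and the others did not pass.

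Promoters of the nuclear members were read for letters of the factors known to serve them. RefSeq tables (GRCh38.p14) gave 300 bases, 250 before the start and 50 after it, for 69 of 87 nuclear members, and 18 were not matched. Both strands were searched. The NRF1 consensus was in 6 of 69 (8.70%), against 2.06% of 15178 other protein-coding genes. The ETS motif CCGGAAG was in 20 of 69 (28.99%), against 14.3% of 15178 other protein-coding genes, and the YY1 motif AANATGGCG was in 16 of 69 (23.2%), against 4.85% of 15178 other protein-coding genes. Of the 18 members with a promoter that were lower in AML lines with both cytokines, 0, 6 and 5 held the NRF1, ETS and YY1 motif. These are matches of letters and not bound sites. NDUFS3, the member with the lowest adjusted p in AML lines, is shown because it holds 2 ETS matches and 1 YY1 match, in capitals (chr11:47578824-47579123, plus strand), none overlapping another. Its RefSeq start lies inside the longer GENCODE v29 gene.
NDUFS3 promoter: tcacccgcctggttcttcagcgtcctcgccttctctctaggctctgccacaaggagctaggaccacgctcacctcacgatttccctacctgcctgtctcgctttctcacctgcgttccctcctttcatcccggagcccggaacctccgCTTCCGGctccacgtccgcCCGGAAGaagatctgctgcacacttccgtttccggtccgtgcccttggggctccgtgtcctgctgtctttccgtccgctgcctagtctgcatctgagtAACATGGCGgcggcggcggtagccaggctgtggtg
The promoter window of NDUFV1, which fell in the same lines, held none of the 3 motifs.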

How the data were processed

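RNA of 20 libraries was sequenced; per the labels' protocols it was purified with a QIAGEN RNeasy kit, and 1 ug of total RNA was made into libraries by an Illumina procedure. The submitters' processing notes name Salmon 1.2.0, DESeq2 1.28.1 and the build GRCh38.p13 without giving their roles. No source used here states the annotation release or the use of strand. The authors deposited TPM values for 35168 genes and 170068 transcripts, so depth is unknown and no counting interval is given. A column with x2 in its name was taken as the library with both cytokines, since the line's other treatments have columns of their own.

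Expression as log2(TPM + 1) was tested by limma 3.58.1 (R 4.3.3) with a trend on mean expression, in genes of at least 1 TPM in 2 libraries. Benjamini-Hochberg adjustment ran over all genes of a comparison, with a call at an adjusted p under 0.05; a log2 change on this scale understates that of weakly expressed genes. For treatments, 1 model over the 20 libraries held a coefficient per line; untreated cell types were compared in 5 libraries. The pairing by line comes from the labels: deviations from the group means correlated at 0.65 to 0.90 over the 30 pairs of libraries of 1 line. Rescaling divided each library by its summed TPM outside the 13 MT genes, and another scale used the median ratio over genes. Both were repeated on transcripts that GENCODE v29 types as protein-coding (167049 typed, 3019 not), which with TPM gives 6 scales. The fits were tested on simulated data.

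Named genes were the called members (at most 10 a comparison, by size of change), the 13 mitochondrial members, complex II, isoform pairs, NDUFA4 with its relatives, the highest and lowest member of each complex, the 2 of widest range, and at most 4 called genes of a list; examples of members that changed with the scale were chosen after their values were seen. The members, lists and rule were chosen with earlier results of these data known. Python 3.11.15 with pandas 2.3.3, numpy 2.4.6 and matplotlib 3.10.9 served for tables and plots. Alternatives changed the pseudocount, filter, scale, line term, libraries in the fit, transcripts and denominators.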

Additional observations from a re-analysis of the deposited data

Results flagged for a closer look

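In 2 genes of the lists beside the respiratory chain the response to IFNg+TNFa differed between the cell types in a test of the difference itself (limma, adjusted over all genes, 2.28% of which passed). UCP2, an inner-membrane carrier, stood at 33.5 TPM in NOMO-1, 119.7 in Kasumi-1 and 79.9 in THP-1 with both cytokines, against 11.2 TPM in untreated NOMO-1, 131 in untreated Kasumi-1 and 114 in untreated THP-1, and in endothelial lines at 4.53 TPM in iHUVEC and 1.45 in TIME with both cytokines, against 24.2 TPM in untreated iHUVEC and 9.19 in untreated TIME. Its log2 response in AML lines minus that in endothelial lines was 2.41 ± 0.55 (adjusted p = 0.0363); it was higher with both cytokines in NOMO-1 and lower in the other 4 lines. MRPS6, a protein of the small mitochondrial ribosomal subunit, stood at 83.4 TPM in NOMO-1, 86.7 in Kasumi-1 and 102 in THP-1 with both cytokines, against 56.7 TPM in untreated NOMO-1, 85.2 in untreated Kasumi-1 and 72.9 in untreated THP-1, and in endothelial lines at 17.8 TPM in iHUVEC and 10.7 in TIME with both cytokines, against 40.7 TPM in untreated iHUVEC and 33.5 in untreated TIME. Its difference of response was 1.71 ± 0.30 (adjusted p = 0.0109); it was higher with both cytokines in all 3 AML lines and lower in both endothelial lines. No member of the respiratory chain passed this test. Of the marker genes read for cell types, KRT18 of the epithelial list passed it with the same sign, at 2.49 ± 0.38 (limma, adjusted p = 0.00548). EMCN and VWF of the endothelial list were at 3.56 ± 0.42 and 1.51 ± 0.27. Both stayed below 1 TPM in every AML library and passed the filter on low values only through the endothelial lines. Their differences thus rest on the endothelial lines and are a description with no test. The part of these 3 genes in the differences of UCP2 and MRPS6 was not tested.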

How the results depend on the processing

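Settings that restrict the sums to protein-coding transcripts, combine a left-out line with rescaling, leave out MT-ATP8 and MT-ND4L, or combine the mean of 4 libraries with rescaling were chosen after seeing the data. Of 24 members called with both cytokines in AML lines, 22 were nuclear. The median ratio gave 11 members (4 higher and 7 lower), 7 of them among the 22, and 11 over protein-coding transcripts, 8 of them among the 22. The libraries of AML lines alone gave 10. Leaving out 1 line gave 7 to 24, lowest with Kasumi-1 left out (7), then either endothelial line (10), NOMO-1 (16) and THP-1 (24), and 14 to 23 after rescaling. Of 4 called in endothelial lines, a pseudocount of 0.1 gave 2, rescaling gave 11, the median ratio 1 (higher) and endothelial libraries alone 38. The counts in this paragraph stand without the share of all genes called in the same fit. None of them, the 38 included, sets the members apart from other genes. Protein-coding transcripts gave 2, and 11 rescaled and 1 with the median ratio. Leaving out 1 line gave 0 to 10, and after rescaling 0 to 26 (17 with NOMO-1 left out), with 0 in both cases when either endothelial line was left out. Between untreated cell types the single call, COX7A1, was lost with no filter, with a 5 TPM filter, after rescaling, with the median ratio, with the mean of 4 libraries per line (also rescaled) and with the median ratio over protein-coding transcripts: 0 members in each. Over rescaled protein-coding transcripts COX7A1 was lost as well, and 1 nuclear member of complex I was called higher in AML lines instead. Leaving out 1 line gave 0 to 1, also after rescaling; without Kasumi-1 the call was NDUFA6. COX7A1 and NDUFA6 each passed the filter only through the cell type in which it is high, so neither call is support for a difference. The block for the line mattered for both treatments: with no replicate block, 0 members passed in AML lines and 0 in endothelial lines with both cytokines (limma), with 1 and 0 at an unadjusted p under 0.05. The cause of these moves was not tested, but fits without a line carry fewer libraries.

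The log2 ratio of mitochondrial to nuclear sums was 10.1 in NOMO-1, 5.92 in Kasumi-1, 5.71 in THP-1, 5.47 in iHUVEC and 6.16 in TIME as a difference of medians over members. Without MT-ATP8 and MT-ND4L it was 6.62 in NOMO-1, 2.08 in Kasumi-1, 2.04 in THP-1, 1.99 in iHUVEC and 2.54 in TIME, and over protein-coding transcripts 3.14 in THP-1 and 3.70 in TIME. NOMO-1 was highest in each, which its choice for the mitochondrial share favoured in advance. The nuclear share of nuclear TPM was 3.31% in Kasumi-1, 4.53% in THP-1, 2.498% in iHUVEC and 2.08% in TIME without ribosomal protein genes, and 3.64% in NOMO-1, 4.06% in Kasumi-1, 5.56% in THP-1, 3.13% in iHUVEC and 2.63% in TIME without the top 100 genes. Of the values of named members under the alternatives, 987 kept their side of the threshold, 158 lost the threshold, 35 gained it and 34, called on at least 1 side, changed direction, all of these in the comparison of NOMO-1 with Kasumi-1 and THP-1. There, 5 members with a log2 difference below 0 in TPM were above 0 after rescaling (1.27 for NDUFA10, 1.04 for ATP5F1D, 1.38 for NDUFS3, 0.37 for NDUFA9 and 1.74 for SDHA) and with the median ratio (1.65 for NDUFA10, 1.42 for ATP5F1D, 1.76 for NDUFS3, 0.74 for NDUFA9 and 2.12 for SDHA). With 1 line left out and rescaling the values above 0 ran over 0.83 to 1.71 for NDUFA10, 0.46 to 1.62 for ATP5F1D, 0.85 to 1.90 for NDUFS3, 0.37 to 0.96 for NDUFA9 and 1.71 to 1.78 for SDHA, and NDUFA9 was at -0.22 without THP-1. Over protein-coding transcripts, values above 0 were 1.81 for NDUFA9 and 0.72 for SDHA rescaled, and 0.28 for NDUFS3, 2.15 for NDUFA9 and 1.11 for SDHA with the median ratio. The counts of 0 for single cytokines stayed at 0. The count of NOMO-1 against the other AML lines, pooled over directions and genomes, stayed within 1.5 times its value, but its nuclear calls did not: 0 were higher and 75 lower in TPM, 13 and 46 after rescaling, 22 and 34 with the median ratio, and 21 and 25 with the median ratio over protein-coding transcripts, where 17 had the opposite sign to TPM. Depth is unknown, the groups hold 3 and 2 lines, and a listed 0 may be a failed estimate.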
